A study of Homo sapiens with 10 samples.

Results

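Axon guidance ligands and receptors were examined in H1, a widely used human embryonic stem cell line, after knockdown of 4 chromatin and transcription regulators. The genes were chosen by name: semaphorins of classes 3 to 7, plexins, ephrins and their Eph receptors, SLIT ligands and ROBO receptors, netrins and UNC5 receptors. The rule found 55 of the 13808 gene rows in the deposited table, of which 54 are protein-coding and 1, SEMA6A-AS2, is a noncoding RNA transcribed opposite to SEMA6A. The choice used no measured value.

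Short hairpin RNAs (shRNAs) against SMARCA4, MAFK, E2F6 or KDM1A, or against LUC (shLUC, the control), were delivered by virus packaged in 293T cells, and puromycin selected the cells that carried them. All 5 groups shared the H1 background, labelled as wild type in genotype, and the same mTeSR1 culture on Matrigel, and each had 2 libraries described as biological duplicates. How many hairpins served each target, and how long the cells were kept after selection, is not given in the sources used here. RNA-seq measured total RNA from whole cultures, so fewer cells of a type and less RNA per cell cannot be told apart.

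Guidance molecules steer growing axons and migrating cells. Semaphorins signal mainly through plexins, class 3 semaphorins with a neuropilin as co-receptor. Ephrins on one cell bind Eph receptor tyrosine kinases on another, SLIT proteins repel through ROBO receptors, and netrins repel cells that carry UNC5 and attract cells that carry DCC. The same families shape tissue boundaries and blood vessels outside the nervous system, and many of their genes are active in embryonic cells before any axon exists.

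Values are the authors' normalized values per library, whole numbers that share nearly the same distribution, with totals from 22836548 to 22855295, so the read depth is unknown. SMARCA4 itself had 1100 and 985 in the shSMARCA4 libraries against 8086 and 8374 in shLUC. KDM1A had 3290 and 1879 in shKDM1A against 6344 and 5925. E2F6 had 336 and 304 in shE2F6 against 491 and 553, and MAFK had 82 and 216 in shMAFK against 212 and 288, which overlapped. At a limma adjusted p under 0.05, SMARCA4 passed in its own knockdown (adjusted p 8.55e-05). KDM1A, E2F6 and MAFK did not pass in theirs, with limma adjusted p of 0.132, 0.774 and 0.572. A lack of calls in those groups is therefore no sign of an absent effect. All 10 listed pluripotency markers were in the table, while PAX6, SOX1, SOX10 and NEUROG2 were not among its rows. The neural markers TUBB3, DCX, MAP2, STMN2 and FABP7 and the neural crest marker NGFR were present. TUBB3 had 5536 and 3264 in shLUC, and NGFR had 531 and 566. The spread between replicates over these 55 genes, as the SD on the log2 scale, was 0.743 in shKDM1A and from 0.218 to 0.321 in the other 4 groups. The shKDM1A pair thus stood apart, and all groups share 1 error estimate in the fit.

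Most guidance genes were expressed at low to moderate levels. Divided by the length of exon annotated for each gene, the mean over all 10 libraries had a median of 68.7 per kilobase over the 55 genes, against 124.4 over all 13808 gene rows, and 21 of the 55 lay above that. The division assumes that the deposited values grow with exon length, which is not known here. The highest were SEMA6B with 963.3 per kilobase and EPHA1 with 884.3, followed by the noncoding SEMA6A-AS2 with 827.2. SEMA6A-AS2 has only 0.482 kilobases of exon, and its undivided mean of 398.7 was above 37.3% of gene rows. Without the division SEMA6A had the highest mean of the 55, 8161. The first place of SEMA6B rests on its shKDM1A values, 10352 and 5302, against 3506 and 3674 in shLUC. SEMA6A, a transmembrane semaphorin, had 744.9, and EPHB4, the receptor of EFNB2, had 626.2. These were followed by the plexins PLXNB2 and PLXNB1 with 479.2 and 458.6.

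Levels differed widely between genes within the ROBO and UNC5 receptors. ROBO1 had 334.5 per kilobase while ROBO3 had 24.22 and ROBO2 had 18.95. UNC5B and UNC5D, receptors for netrins, had 209.5 and 198.4, and UNC5A and UNC5C had 28.22 and 7.225. Ligands of the netrin family were low, with 24.8 for NTN4 and 9.118 for NTN1. SLIT2, the only SLIT gene in the table, had 68.7, and among ephrins EFNB2 led with 164.6 and EFNA4 followed with 154.2. The table did not hold rows for PLXNA2, EPHA3, EPHA5, EPHB3, SLIT1, SLIT3, EPHA8, EPHA10, NTN3, NTN5, ROBO4 and SEMA3G, which were not analysed here.

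**Figure D1:**
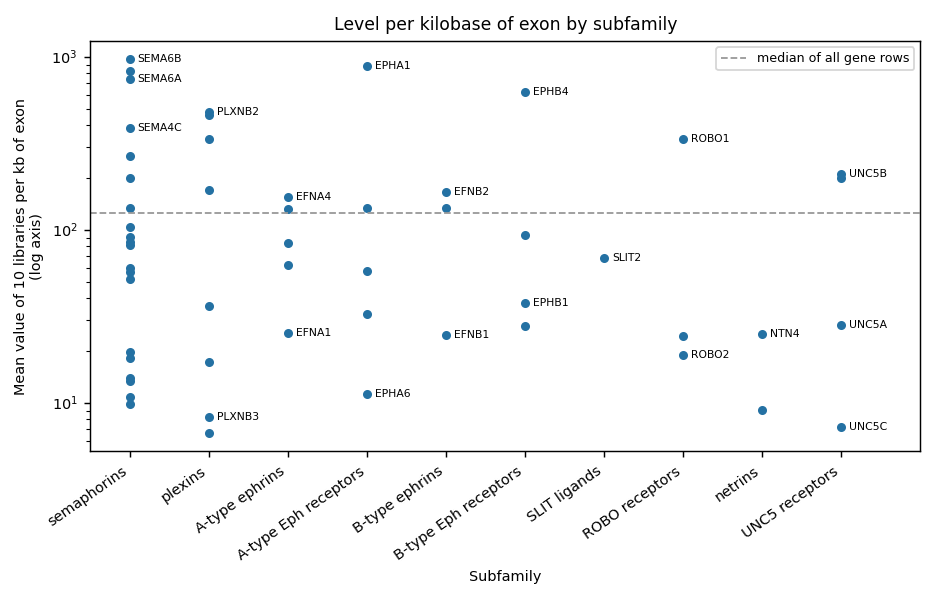
Mean normalized value over the 10 libraries per kilobase of annotated exon (log axis) for the 55 genes in 10 subfamilies, 1 point per gene, with the median of all gene rows as a dashed line. SEMA6B, EPHA1, SEMA6A and EPHB4 stand high, and in every subfamily with 3 or more genes at least 1 gene lies below the line.

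Together the 55 genes made up 0.249% of the total in both shLUC libraries. The share was 0.295% and 0.265% in shKDM1A, 0.252% and 0.271% in shE2F6, 0.234% and 0.231% in shMAFK, and 0.262% and 0.308% in shSMARCA4. Only the shMAFK libraries lay below both controls. SEMA6A and SEMA6B carry much of this sum, with values up to 13578 in shSMARCA4 replicate 2 and 10352 in shKDM1A replicate 1.

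**Figure D2:**
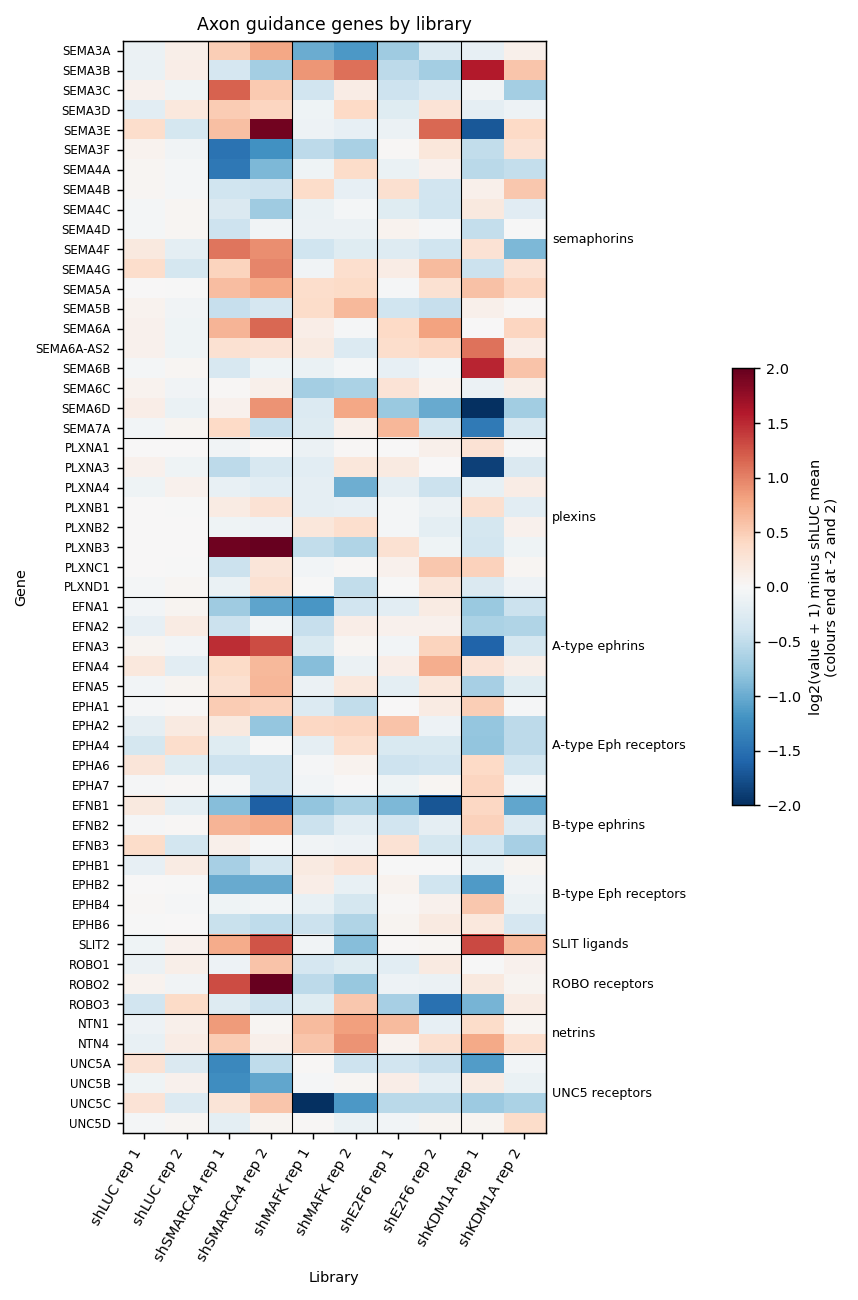
Each row is 1 of the 55 genes and each column 1 of the 10 libraries; colour gives log2(value + 1) minus the mean of the shLUC libraries, with colours ending at -2 and 2. PLXNB3 and ROBO2 are higher in both shSMARCA4 libraries, and several genes differ between the shKDM1A libraries, such as PLXNA3 and SEMA3E.

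Knockdown of SMARCA4, the ATPase of the BAF chromatin remodelling complex, gave the clearest differences. At a limma adjusted p under 0.05, 6 of the 55 genes changed, 3 higher (ROBO2, PLXNB3 and SEMA5A) and 3 lower (UNC5B, SEMA3F and SEMA4A). Over all 14785 rows 4.18% passed, 1.67% higher and 2.51% lower. At an unadjusted p under 0.05 there were 21 of the 55, 11 higher and 10 lower (all rows 16.3%, with 7.78% higher and 8.53% lower), and 11 differed at least 2-fold (all rows 5.76%). The libraries of the groups did not overlap for 39 genes, 18 higher and 21 lower (all rows 51.0%, with 25.6% higher and 25.4% lower). The median log2 change of the 55 was -0.03, against 0.01 over all rows, and the median size of the change was 0.47 against 0.21.

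ROBO2 (ENSG00000185008, chromosome 3, 75906695 to 77649964 on GRCh38, plus strand) is a SLIT receptor. It had 560 and 933 in shSMARCA4 and 239 and 216 in shLUC. The other 6 libraries held 134 to 261, so both shSMARCA4 libraries were above all others. Its log2 change was 1.67 (limma SE 0.23, adjusted p 0.00635), a 3.17-fold rise. ROBO1, at 3348 and 5367 against 3314 and 3901, did not pass (log2 change 0.24, limma adjusted p 0.719), nor did ROBO3.

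SLIT2 (chromosome 4, 20253260 to 20620561, plus strand), a ligand of ROBO2, had 818 and 1170 in shSMARCA4 and 460 and 518 in shLUC. The libraries did not overlap, but the log2 change of 1.00 (SE 0.30) missed the threshold (limma adjusted p 0.118). It was also at 1215 and 762 in shKDM1A, against 496 and 499 in shE2F6 and 464 and 270 in shMAFK. High SLIT2 was thus seen in shSMARCA4 and shKDM1A, while high ROBO2 was seen in shSMARCA4, with 261 and 235 in shKDM1A.

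PLXNB3 (chromosome X, 153764196 to 153779346, plus strand), a plexin that binds SEMA5A, was near the bottom of the range in every group but shSMARCA4. It had 134 and 202 there, 34 in both shLUC libraries and 22 to 42 in the other 6. The log2 change was 2.24 (limma SE 0.42, adjusted p 0.0202), a 4.73-fold rise. Its exons share 1432 bases with SRPK3 on the same strand, so reads of SRPK3 could be counted in it. The other 7 plexins did not pass, and PLXNA1, PLXNB1, PLXNB2 and PLXND1 had log2 changes between -0.09 and 0.23.

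SEMA5A (chromosome 5, 9035026 to 9546075, minus strand), a transmembrane semaphorin, had 830 and 903 in shSMARCA4 and 539 and 537 in shLUC, a log2 change of 0.69 (limma SE 0.16, adjusted p 0.0457). Values of 806 and 726 in shKDM1A and 686 and 702 in shMAFK were also above shLUC, and the libraries of shE2F6 held 531 and 664. The shSMARCA4 values were the highest of the 10. Its relative SEMA5B stood lower, at 565 and 614 against 816 and 735 (log2 change -0.39, limma adjusted p 0.243).

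UNC5B (chromosome 10, 71212570 to 71302864, plus strand), a netrin receptor known from vessel branching, had 678 and 783 in shSMARCA4 and 1513 and 1696 in shLUC. The other 6 libraries held 1418 to 1796, so the shSMARCA4 libraries were the only low ones. The log2 change was -1.14 (limma SE 0.18, adjusted p 0.0105). UNC5A had 64 and 110 against 192 and 129 (limma adjusted p 0.308), UNC5D had 1842 and 2186 against 2046 and 2178, and UNC5C had 116 and 142 against 117 and 80. Neither netrin passed.

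SEMA3F (chromosome 3, 50155045 to 50189075, plus strand), a secreted semaphorin that acts through NRP2, had 558 and 668 in shSMARCA4 and 1639 and 1472 in shLUC. Its log2 change was -1.35 (limma SE 0.25, adjusted p 0.0184). The shMAFK libraries lay between, at 1078 and 988, and the shE2F6 and shKDM1A libraries held 1103 to 1908. SEMA4A (chromosome 1, 156147366 to 156177752, plus strand), a membrane semaphorin known from immune cells, had 58 and 84 against 162 and 154, a log2 change of -1.17 (limma SE 0.25, adjusted p 0.0364). The lowest value of SEMA4A elsewhere was 108.

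**Figure D3:**
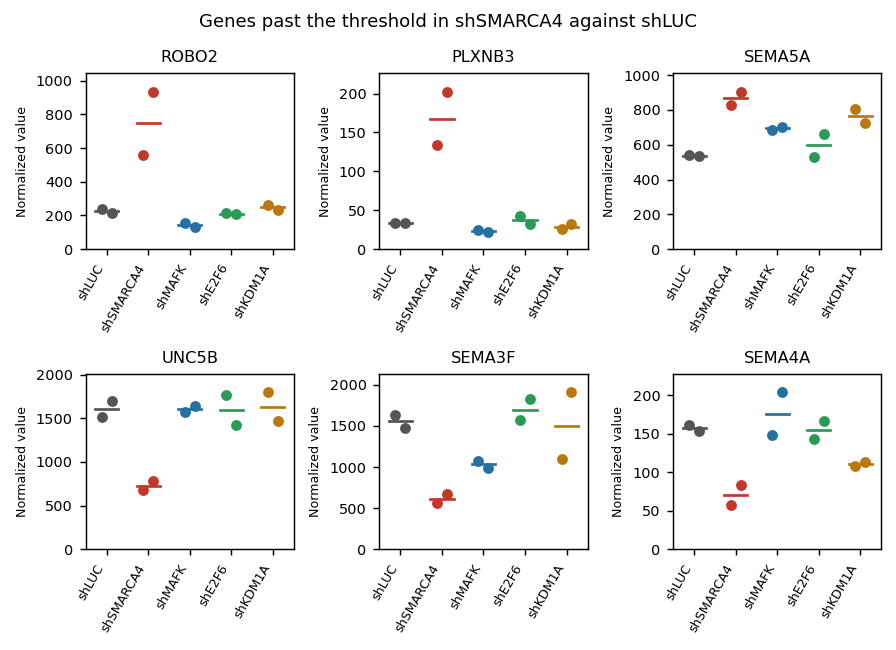
Normalized values (linear axes from 0) of the 6 genes past the threshold in shSMARCA4 against shLUC, with 1 point per library and a line at each group's mean. For ROBO2, PLXNB3 and SEMA5A both shSMARCA4 points are the highest of the 10, and for UNC5B, SEMA3F and SEMA4A both are the lowest.

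These calls rest on few libraries. Without shLUC replicate 1 or without shLUC replicate 2, 0 of the 55 genes passed in limma, without shSMARCA4 replicate 1 only ROBO2 did, and without shSMARCA4 replicate 2 ROBO2 and UNC5B did. Without either shKDM1A library 11 passed: the same 6 with SEMA6A, EFNA3, EFNB2, SEMA4F and EPHB2. The log2 change of ROBO2 ranged from 1.30 to 2.03 and that of UNC5B from -1.24 to -1.03 over all alternatives, with no change of sign for any of the 6.

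Semaphorins as a family moved both ways. Of 20, 11 had a log2 change above 0 in shSMARCA4 (50.9% of all rows) and 9 below, and 3 passed. SEMA6A (chromosome 5, 116443616 to 116574934, minus strand) had 9774 and 13578 against 6492 and 5791, which missed the threshold with a log2 change of 0.91 (limma SE 0.22, adjusted p 0.0566). SEMA6A-AS2, whose exons overlap those of SEMA6A by 58 bases on the other strand, had 404 and 394 against 346 and 306. SEMA4F had 218 and 197 against 118 and 90, and SEMA3C had 144 and 91 against 67 and 59, with limma adjusted p of 0.195 and 0.303.

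Among Eph receptors in shSMARCA4, 1 of 5 A-type and 3 of 4 B-type genes had an unadjusted limma p under 0.05 (all rows 16.3%). Among ephrin ligands these were 2 of 5 A-type and 2 of 3 B-type genes. No ephrin or Eph receptor passed the threshold in shSMARCA4, where the share over all rows was 4.18%. EFNA3 (chromosome 1, 155078872 to 155087538, plus strand), a membrane-anchored ligand, came nearest with 557 and 499 against 208 and 193, a log2 change of 1.39 (limma SE 0.36, adjusted p 0.0729). EFNA4, which ends 9.3 kilobases before EFNA3 starts, had 222 and 267 against 197 and 148. EFNA1, a further 39.9 kilobases on, had 51 and 40 against 81 and 87. A gene annotated across EFNA3 and EFNA4, AL691442.1, shares 853 exon bases with EFNA3, so reads of these rows may be split between them.

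All 4 B-type Eph receptors had lower values in both shSMARCA4 libraries than in both shLUC libraries, as did 25.4% of all rows, and none passed the threshold. EPHB2 had 210 and 209 against 423 and 422 (-1.01 on the log2 scale, limma SE 0.31, adjusted p 0.124), and EPHB1 had 170 and 208 against 239 and 302. EPHB4, at 3798 and 3873 against 4065 and 3966, differed by a log2 change of only -0.07. EFNB2, a ligand of EPHB4, had 1232 and 1288 against 760 and 777 (0.71 on the log2 scale, limma SE 0.23, adjusted p 0.142), whereas EFNB1 had 66 and 38 against 138 and 105 (limma adjusted p 0.26). EPHA1 had 5498 and 5300 against 3798 and 3928 (limma adjusted p 0.23), and the other 4 A-type receptors had log2 changes from -0.42 to -0.13.

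Sequences upstream of 3 of the 6 changed genes are shown because these genes changed after knockdown of a chromatin remodeller, ROBO2 and PLXNB3 upward and SEMA3F downward. Each run is the 250 bases before the start site in RefSeq on GRCh38.p14, read 5′ to 3′ on the plus strand, with CG pairs in capitals. ROBO2 is at chr3:76310630-76310879, PLXNB3 at chrX:153763999-153764248 and SEMA3F at chr3:50154808-50155057.
ROBO2: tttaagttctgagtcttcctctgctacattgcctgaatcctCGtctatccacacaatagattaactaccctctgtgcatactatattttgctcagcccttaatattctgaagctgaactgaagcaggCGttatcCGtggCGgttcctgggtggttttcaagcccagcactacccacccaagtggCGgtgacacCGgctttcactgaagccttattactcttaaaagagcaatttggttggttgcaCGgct
PLXNB3: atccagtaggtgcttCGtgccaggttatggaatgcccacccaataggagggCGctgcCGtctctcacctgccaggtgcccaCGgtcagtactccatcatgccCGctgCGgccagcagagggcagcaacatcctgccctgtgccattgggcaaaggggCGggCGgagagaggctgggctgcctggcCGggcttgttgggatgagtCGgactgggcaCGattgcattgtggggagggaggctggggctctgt
SEMA3F: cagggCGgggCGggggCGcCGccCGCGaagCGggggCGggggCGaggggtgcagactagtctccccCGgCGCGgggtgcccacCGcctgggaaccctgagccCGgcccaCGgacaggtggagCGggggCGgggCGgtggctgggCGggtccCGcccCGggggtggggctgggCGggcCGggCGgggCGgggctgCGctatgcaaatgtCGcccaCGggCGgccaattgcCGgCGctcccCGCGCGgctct

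The windows held 7 CG pairs at ROBO2, 11 at PLXNB3 and 34 at SEMA3F, where the median was 11 over all 35116 windows of this length and 17 over the 47 guidance genes with one. SEMA5A, which rose, had 33 and SEMA4A, which fell, had 5, so both directions held windows rich and poor in CG pairs. ROBO2 has several start sites, and the one used by RefSeq lies 404185 bases inside the start of the GENCODE gene. Which start site these cells use was not analysed here.

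Motifs of factors related to the knockdown targets were searched on both strands in the same windows. The core of the antioxidant response element, TGACNNNGC, bound by small MAF proteins with a partner, was found in 5 of the 47 windows (EFNA4, EFNA5, EFNB2, EPHA7 and SLIT2), 10.6% against 10.9% of all windows. The E2F form TTCCCGCC was found in 1, EFNA4 (2.1% against 2.7%), and TTTGGCGC in 0 (0.5% of all). The E-box CACGTG was found in 3 (6.4% against 6.3%), TGANTCA in 1 (2.1% against 6.6%) and TATAAA in 1 (2.1% against 10.7%). These are matches of letters, not binding sites.

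To see whether shSMARCA4 also stood apart from cells that carried another active hairpin, it was compared with the mean of the other 3 knockdowns. This comparison shares the shSMARCA4 libraries with the one above but not the shLUC mean. It found 11 of the 55 genes, 7 higher and 4 lower (8.7% of all rows, 3.7% higher and 5.0% lower). The 7 were ROBO2, PLXNB3, SEMA3A, EFNA3, EFNB2, SEMA4F and UNC5C, and the 4 were UNC5B, SEMA3F, SEMA4A and EPHB1.

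ROBO2 differed by 1.87 (limma SE 0.19, adjusted p 0.000745) and UNC5B by -1.14 (limma SE 0.15, adjusted p 0.00207). EFNA3 differed by 1.70 (limma SE 0.29, adjusted p 0.00876) and EFNB2 by 0.88 (limma SE 0.19, adjusted p 0.0202) on the log2 scale. SEMA5A, past the threshold against shLUC, differed by 0.35 here (limma adjusted p 0.146). The number of genes was 4 without shSMARCA4 replicate 1, 3 without shSMARCA4 replicate 2, 7 without shE2F6 replicate 1, 17 without shKDM1A replicate 1 and 22 without shKDM1A replicate 2. ROBO2 and UNC5B passed under each of the 18 alternatives run for this comparison.

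**Figure D4:**
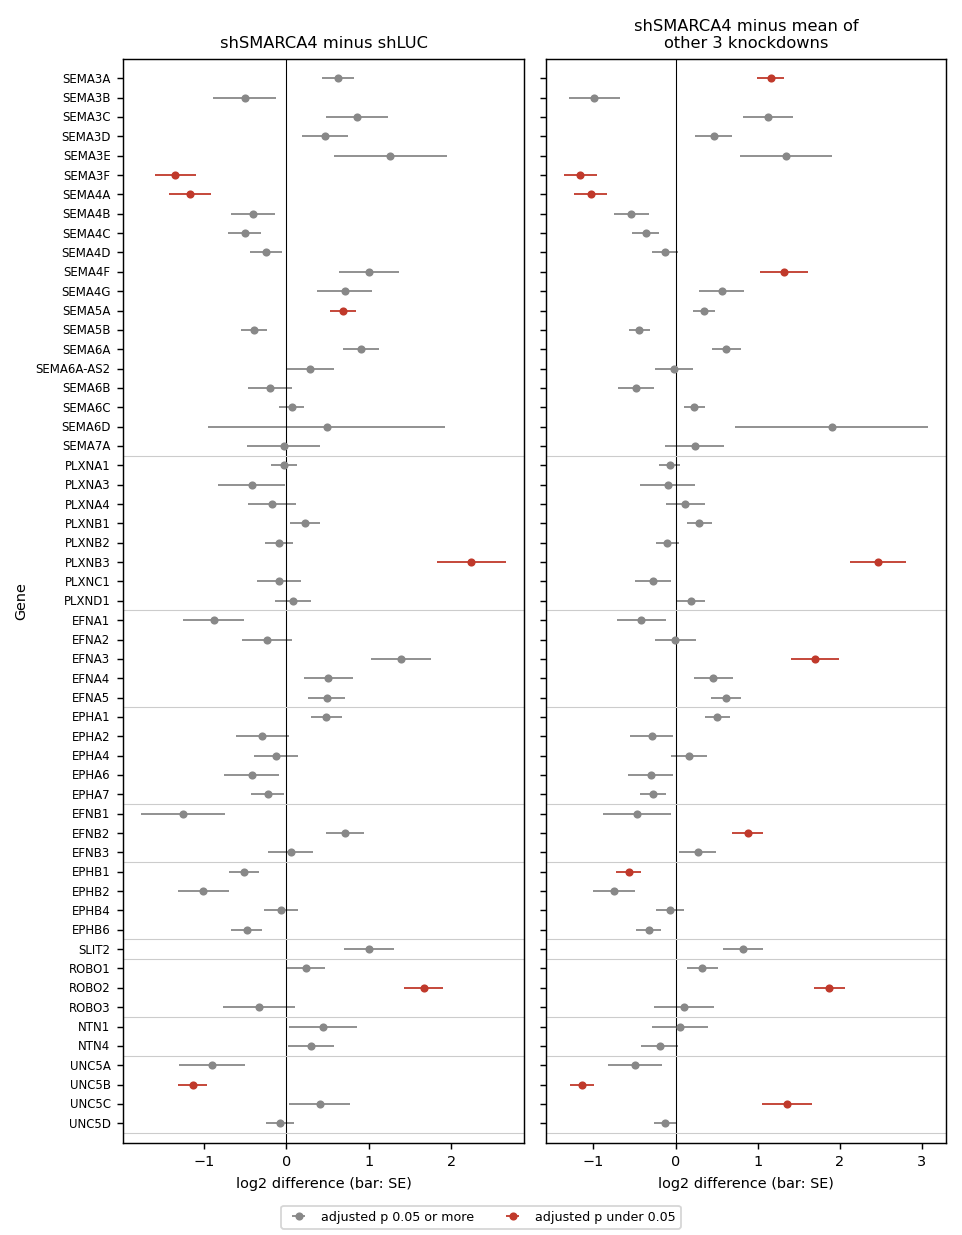
Log2 differences of the 55 genes, grouped by subfamily, for shSMARCA4 against shLUC (left) and against the mean of the other 3 knockdowns (right), with bars for the SE and red for a limma adjusted p under 0.05. PLXNB3 (2.24 and 2.46) and ROBO2 (1.67 and 1.87) lie farthest right among the red points in both panels.

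Knockdown of MAFK, a small MAF transcription factor, changed 0 of the 55 genes in limma at the threshold (all rows 0.0135%). At an unadjusted p under 0.05 there were 10, 4 higher and 6 lower (all rows 8.77%, with 4.27% higher and 4.49% lower). The libraries did not overlap for 26 genes, 8 higher and 18 lower (all rows 49.1%, with 23.8% higher and 25.3% lower), and 2 differed at least 2-fold, both lower (all rows 2.28%, with 1.07% lower). With a separate weight for each group, which allows for the wide shKDM1A pair, 4 passed: SEMA3A, SEMA6C, UNC5C and EPHB6, each lower. The share of all rows past the threshold with these weights is not given here, so the 4 are not set against it.

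SEMA3A (chromosome 7, 83955777 to 84492724, minus strand), the secreted semaphorin that collapses growth cones, had 422 and 381 in shMAFK against 776 and 918 in shLUC. The log2 change was -1.07 (limma SE 0.20, adjusted p 0.14). SEMA3A was highest in shSMARCA4, at 1184 and 1436, with 518 and 696 in shE2F6 and 752 and 901 in shKDM1A. No library of shMAFK reached any other group's value. UNC5C (chromosome 4, 95162504 to 95549206, minus strand) had 22 and 43 in shMAFK and 117 and 80 in shLUC (-1.62 on the log2 scale, limma SE 0.37, adjusted p 0.179).

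SEMA6C (chromosome 1, 151131685 to 151146664, minus strand) had 390 and 400 in shMAFK, while the other 8 libraries held 577 to 750 (log2 change against shLUC -0.66, SE 0.15, limma adjusted p 0.19). SEMA5B, in contrast, had its highest values in shMAFK, at 996 and 1218 against 816 and 735 in shLUC (limma adjusted p 0.341). Both netrins were above both shLUC libraries, as were 23.8% of all rows, NTN4 at 116 and 148 against 71 and 87 and NTN1 at 70 and 80 against 42 and 48, with limma adjusted p of 0.476 and 0.712. Of the 8 plexins, PLXNA4, PLXNB1 and PLXNB3 were lower without overlap (all rows 25.3%) and PLXNB2 was higher (all rows 23.8%). The median size of change of the 8 was 0.21 against 0.17 over all rows.

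Knockdown of E2F6, a repressive E2F factor, changed 0 of the 55 genes in limma (all rows 0.0%). At an unadjusted p under 0.05 there were 5, 1 higher and 4 lower (all rows 5.09%, with 2.55% higher and 2.54% lower), and 23 genes did not overlap, 5 higher and 18 lower (all rows 40.7%, with 20.3% higher and 20.4% lower). The smallest p belonged to SEMA6A, at 8088 and 10759 against 6492 and 5791 (0.61 on the log2 scale, limma SE 0.22, adjusted p 0.925). SEMA5B had 588 and 565 against 816 and 735. At least 2-fold differences were found for EFNB1, at 64 and 36 against 138 and 105, and ROBO3, at 124 and 70 against 152 and 258 (all rows 1.09%, with 0.676% lower), with limma adjusted p of 0.939 and 0.956.

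Knockdown of KDM1A, a histone demethylase, changed 0 of the 55 genes in limma (all rows 0.0271%). At an unadjusted p under 0.05 there were 8, 4 higher and 4 lower (all rows 11.5%, with 5.85% higher and 5.61% lower). The libraries did not overlap for 24, 9 higher and 15 lower (all rows 38.8%, with 17.9% higher and 20.9% lower), and 4 differed at least 2-fold (all rows 3.26%). Without shKDM1A replicate 2 the count was 10 and without shKDM1A replicate 1 it was 0, so 1 library decided it.

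SEMA6B (chromosome 19, 4542593 to 4559808, minus strand), a transmembrane semaphorin, had 10352 and 5302 in shKDM1A, and the other 8 libraries held 2870 to 3674. Both shKDM1A libraries were thus the highest, although they differed from each other. The log2 change was 1.05 (limma SE 0.27, adjusted p 0.265), 0.56 without shKDM1A replicate 1 and 1.53 without shKDM1A replicate 2. SLIT2, at 1215 and 762, had a log2 change of 0.98 (limma SE 0.30, adjusted p 0.341), 0.64 without shKDM1A replicate 1.

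SEMA3B (chromosome 3, 50267558 to 50277546, plus strand), a secreted semaphorin, had 176 and 86 in shKDM1A and 53 and 64 in shLUC (log2 change 1.07, limma adjusted p 0.388). It was also at 108 and 126 in shMAFK, and at 36 to 46 in shE2F6 and shSMARCA4. PLXNA3 had 132 and 394 against 516 and 454, and SEMA6D was listed at 0 in shKDM1A replicate 1 and at 56 in the other, against 100 and 83. For PLXNA3 the log2 change was -1.08, but -0.30 without shKDM1A replicate 1. EFNA3, high in shSMARCA4, was at 65 and 156 in shKDM1A (log2 change -0.98, limma adjusted p 0.399).

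A moderated F-test in limma asked whether the 4 knockdowns differed from each other, leaving the shLUC mean aside. It found 12 of the 55 genes (all rows 6.64%): ROBO2, SEMA3A, UNC5B, PLXNB3, SEMA5B, EFNA3, SEMA3F, SEMA6C, SEMA3B, SLIT2, SEMA4A and UNC5C. Their limma adjusted F-test p ran from 0.00348 for ROBO2 and 0.00626 for SEMA3A to 0.0493 for UNC5C. None of the 12 was among the 5 A-type and 4 B-type Eph receptors or the 2 netrins. At the share over all rows, families this small could well hold none. Of the 12, 6 were among the 20 semaphorins. The count was 5 without either shLUC library and 5 without either shE2F6 library, 6 and 4 without shMAFK replicate 1 and 2, and 2 without either shSMARCA4 library. It was 28 without shKDM1A replicate 2, and ROBO2 and SEMA3A passed under each of the 18 alternatives run.

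The 12 genes followed several orders. ROBO2, PLXNB3 and EFNA3 were high in shSMARCA4, and UNC5B, SEMA3F and SEMA4A were low there. SEMA6C was low in shMAFK. SEMA3A and UNC5C had their lowest values in shMAFK and their highest mean in shSMARCA4, with 401.5 ± 29 (SD, n = 2) and 1310 ± 178 for SEMA3A and 32.5 ± 14.8 and 129 ± 18.4 for UNC5C. SEMA5B was lowest in shE2F6 and shSMARCA4, at 576.5 ± 16.3 and 589.5 ± 34.6, and highest in shMAFK at 1107 ± 157.

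**Figure D5:**
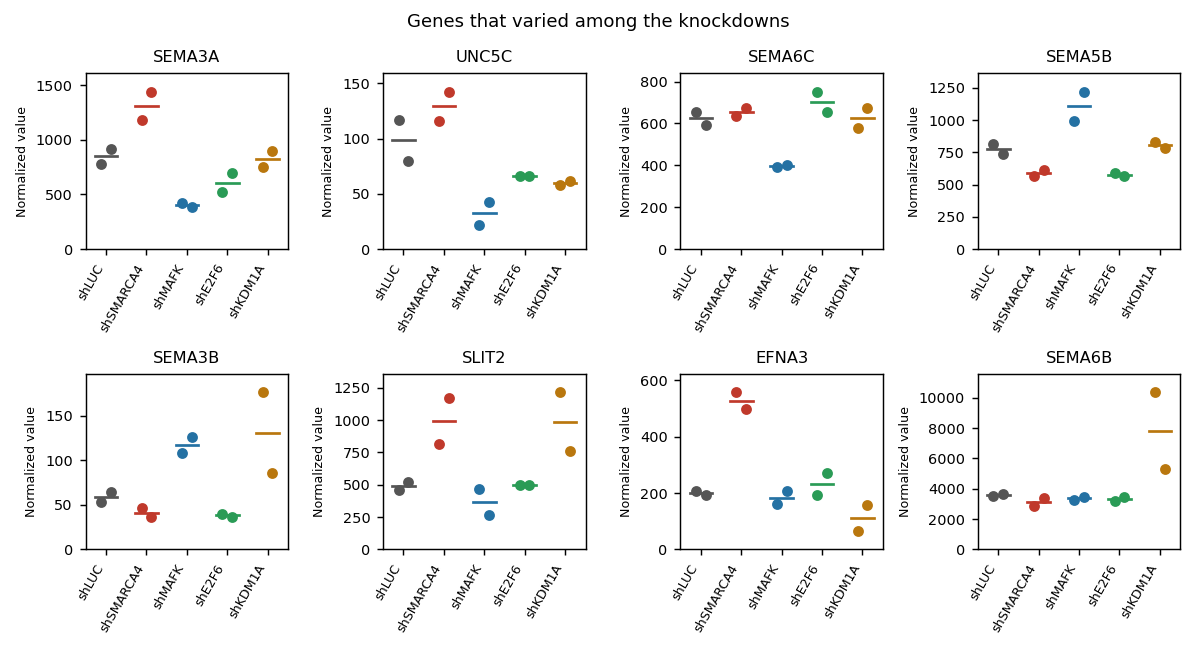
Normalized values (linear axes from 0) of 7 genes past the F-test threshold and of SEMA6B, which missed it (limma adjusted p 0.0503), with 1 point per library and a line at each group's mean. SEMA3A and UNC5C are lowest in shMAFK, SEMA3B is higher in shMAFK and shKDM1A, and the shKDM1A points of SEMA6B lie far apart at 10352 and 5302.

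Class 3 semaphorin genes lie on chromosome 7 in the order SEMA3C, SEMA3E, SEMA3A and SEMA3D, with a gap of 306.7 kilobases between SEMA3E and SEMA3A. In shSMARCA4 all 4 had both libraries above both shLUC libraries, as did 25.6% of all rows, and none passed the threshold. SEMA3E varied most between replicates, at 1222 and 3060 in shSMARCA4, 746 and 1786 in shE2F6, 248 and 1066 in shKDM1A, 753 and 722 in shMAFK and 1026 and 634 in shLUC. In 3 groups the library numbered 2 was more than 2-fold higher. The log2 change of SEMA3E in shSMARCA4, 1.26 (SE 0.68), missed the threshold (limma adjusted p 0.428). On chromosome 3, SEMA3F and SEMA3B lie 78.5 kilobases apart and did not share a pattern, with SEMA3F lowest in shSMARCA4 and SEMA3B with its highest mean in shKDM1A.

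Other genes of guidance signalling were taken from a list of 104 co-receptors, ligands and effectors, of which 89 were in the table. In shSMARCA4 9 passed, 3 higher and 6 lower (all rows 4.18%). In shMAFK, shE2F6 and shKDM1A, 0 passed in limma, with 10, 6 and 13 of the 89 (11.2%, 6.74% and 14.6%) at an unadjusted p under 0.05. Over all rows these shares were 8.77%, 5.09% and 11.5%. Among 16 receptors and co-receptors, FLRT2 had 475 and 444 in shSMARCA4 against 200 and 150 (log2 change 1.40, limma adjusted p 0.00844) and CNTN1, an axonal adhesion molecule, had 1505 and 1454 against 640 and 743 (1.10, limma adjusted p 0.0054). LINGO1 fell, with 684 and 1030 against 1903 and 1728 (limma adjusted p 0.0354).

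Among 62 effectors, 1 rose, ARHGAP39, and 5 fell. SDC2, a heparan sulfate proteoglycan of the cell surface, was listed with the effectors. It had 695 and 652 against 2295 and 2302 (-1.77 on the log2 scale, limma SE 0.20, adjusted p 0.00218). RGS3, which can act downstream of B-type ephrins, had 95 and 88 against 221 and 236 (limma adjusted p 0.00948). GAP43, a growth cone protein, had 286 and 164 against 598 and 516, DPYSL5 had 180 and 204 against 469 and 462, and FYN, a kinase downstream of several guidance receptors, had 861 and 938 against 1440 and 1526, with limma adjusted p of 0.0264, 0.0136 and 0.038. Of 11 other ligands, 0 passed in limma, with 2 at an unadjusted p under 0.05. The count of 9 was 2 without either shLUC library, 5 without shSMARCA4 replicate 1, 3 without shSMARCA4 replicate 2, 5 without either shMAFK library and 16 without either shKDM1A library. NRP2, the co-receptor of SEMA3F, had 550 and 590 in shSMARCA4 and 758 and 960 in shLUC and did not pass, and NRP1 and DCC were not analysed here.

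Markers of other cell types moved in shSMARCA4, where the guidance genes changed most. Of 9 mesendoderm and mesoderm markers, 4 were in the table. Their summed level was 11089 and 7543 in shSMARCA4, and 2605 to 7552 in the other 8 libraries, mostly from KDR. EOMES had 2430 and 724 against 14 and 34 in shLUC, and MIXL1 had 1809 and 132 against 20 and 14. PDGFRA did not rise, with 104 and 40 against 108 and 99. Of 7 endoderm markers, 3 were in the table, with a sum of 3386 and 479 against 71 to 154 elsewhere. FOXA2 and CER1 were each at 0 in some libraries of other groups.

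EOMES, MIXL1, CER1 and FOXA2 were several-fold higher in shSMARCA4 replicate 1 than in replicate 2. KDR, at 6746 and 6647, and HHEX, at 240 and 137, differed less. Of the 18 guidance genes above both shLUC libraries in shSMARCA4, more were higher in replicate 2 than in replicate 1. ROBO2, PLXNB3, SEMA5A, SEMA6A, SEMA3E, SEMA3A, SLIT2, EFNB2, EFNA4, EFNA5, SEMA4G and PLXNB1 were higher in replicate 2. SEMA3C (144 and 91), EFNA3 (557 and 499), SEMA4F (218 and 197) and EPHA1 (5498 and 5300) were higher in replicate 1. So were SEMA3D (146 and 138) and SEMA6A-AS2 (404 and 394). Of 12 markers of neural progenitors and neurons, 5 were in the table, with a sum of 3068 and 3184 in shSMARCA4, 6455 and 4230 in shLUC and 1996 to 6587 in the other 6, and TUBB3 made up most of it. The 1 neural crest marker in the table, NGFR, had 76 and 96 in shSMARCA4 and 531 and 566 in shLUC. Of 7 trophoblast markers 1, KRT7, was in the table, with 30 and 44 against 218 and 296. Of 5 endothelial markers, 3 were in the table, with a sum of 6941 and 6918 in shSMARCA4, 6002 and 5103 in shLUC and 2845 to 7842 elsewhere. KDR, which the mesoderm list also holds, made up most of that sum, and TEK had 60 and 54 in shSMARCA4 against 366 and 313. The 10 pluripotency markers summed to 162454 and 140104 in shSMARCA4 and 158297 and 166233 in shLUC, but single markers moved both ways. SOX2 had 4426 and 4748 against 6408 and 6928, and LIN28A had 30774 in both against 41812 in both. TDGF1, at 9056 and 7313 against 10950 and 13159, and PRDM14, at 575 and 246 against 930 and 706, were also lower. NANOG was higher, at 4613 and 3699 against 2512 and 2639. The remaining markers were not separated from shLUC. The part of these cell states in the values of the guidance genes was not tested.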

How the data were processed

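Total RNA of H1 cells (minimum RNA integrity number 8) was sequenced per the labels' protocols with a NEB Next Ultra kit on an Illumina NovaSeq instrument. The submitters' processing notes name STAR, STARsolo and hg38, without versions. The deposited values are treated as scores: whole numbers the authors normalized by a method not given in the sources used here, with 80.3% of sorted ranks equal in all 10 libraries. They are not raw counts, so no count model was used, no depth is known, and no interval that needs it is given. Neither the annotation nor the use of strand is given. The authors' group means were not used.

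Groups and replicate numbers came from sample titles. Gene positions and exon lengths are from GENCODE release 29 (GRCh38), in which all 55 identifiers and symbols were found. Upstream sequences are from RefSeq, where 47 of 55 symbols matched.

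Values were analysed as log2(value + 1), which understates changes of low genes, in limma 3.58.1 under R 4.3.3 (lmFit, then eBayes with trend, two-sided tests). All 14785 rows and all 10 libraries entered 1 fit with 5 residual degrees of freedom. The fit was tried on simulated data with equal spread in all groups, which does not cover the wide shKDM1A pair. Benjamini-Hochberg adjustment ran over all rows at a threshold of 0.05. No row was filtered, so all 55 genes were tested. Tables used Python 3.11.15 and pandas 2.3.3, plots matplotlib 3.10.9.

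Genes described by name passed a threshold, had 1 of the 3 smallest p in a comparison, differed at least 2-fold without overlap, or led a subfamily per kilobase, and pathway genes passed the threshold. Others are given with their families and were chosen after their values were seen. Members, lists and tests were chosen with earlier results of these data known.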

Additional observations from a re-analysis of the deposited data

How the results depend on the processing

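With 2 libraries a group, leaving out 1 library leaves a lone sample that is assumed to vary like the other groups. The number of the 55 genes changed in shSMARCA4 against shLUC, 6, ranged from 0 to 11 when each library was left out in turn. It was 12 with group weights, 12 in a fit of only the 2 groups and 11 without both shKDM1A libraries, and each of these included all 6. A pseudocount of 10, quantile normalization and upper-quartile rescaling left it at 6, and omission of the mean-variance trend gave 5, without SEMA5A. A minimum mean of 100 also gave 5, but it left 45 of the 55 genes to test and removed PLXNB3, with a mean of 58.2, beforehand. For shMAFK the count was 0, 0 when each library was left out and 4 with group weights. For shE2F6 it was 0 under every alternative run. For shKDM1A it was 0 and ranged from 0 to 10 when each library was left out. Against the mean of the other 3 knockdowns the count of 11 ranged from 3 to 22 when each library was left out. The F-test count of 12 ranged from 2 to 28 in the same way and was 19 without both shKDM1A libraries. The count of other guidance genes in shSMARCA4, 9, ranged from 2 to 16 when each library was left out and was 18 with group weights. In shMAFK it was 0, and 5 with group weights. In shKDM1A it was 0 and ranged from 0 to 15 when each library was left out. The 36 log2 changes followed across alternatives, chosen by their p or size, kept their sign. Those of other genes, such as ROBO1 and PLXND1, were not followed. Shares of all rows past the threshold under the alternatives are not given here, so the counts under them are not set against a background.

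Equal replicate numbers did not count as pairs, since the correlations of replicate deviations ran from -0.05 to 0.337 and not all exceeded 0.1. With the number as a replicate block, 6 genes passed in shSMARCA4, of which 5 were shared with the fit without it (SEMA5A was lost and SEMA6A gained). The block gave 12 genes against the mean of the other 3 knockdowns, 12 in the F-test (UNC5C was lost and EFNA5 gained) and 0 in shMAFK, shE2F6 and shKDM1A. Depth limits cannot be stated, because the normalization hides the depth.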
